A study of Mus musculus with 9 samples.

Results

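The 10 genes described here form the core of the NRF2 antioxidant pathway: the transcription factor NRF2 (*Nfe2l2*), its inhibitor *Keap1*, and 8 genes for glutathione supply, thioredoxin-dependent peroxide removal and detoxification (*Gclc*, *Gclm*, *Gsr*, *Txnrd1*, *Prdx1*, *Srxn1*, *Nqo1* and *Hmox1*). They were chosen by symbol among the 23332 gene rows of the study's expression tables. Each symbol stood in 1 row, all 10 passed the filter on low values that left 11339 rows for testing, and 0 of the 10 had a listed value of exactly 0. RNA was sequenced from murine oviductal epithelial (MOE) cells of the FVB background, a monoclonal line of secretory cells. All 9 samples were hormone starved for 48 h. They were then treated for 24 h with 0.1% DMSO as the solvent, with 1 nM 17β-estradiol (E2) or with 100 nM 4-hydroxytamoxifen (4OHT, a selective estrogen receptor modulator given in DMSO), in 3 samples per condition numbered as replicates 1 to 3. The 2 compounds were given at different doses, each at a single dose and time, and no sample received both.

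NRF2 is a transcription factor of the cap'n'collar family. In unstressed cells KEAP1 binds it and presents it to a CUL3 ubiquitin ligase, so that it is degraded. Oxidants and electrophiles modify cysteines of KEAP1, NRF2 then accumulates, pairs with a small MAF protein and binds antioxidant response elements (AREs) in the control regions of its target genes. Because this switch acts on the NRF2 protein, the mRNA levels measured here do not report NRF2 activity directly. The targets make and recycle glutathione, keep thioredoxin and peroxiredoxins reduced, and break down quinones and heme. Secretory cells of the oviduct are exposed to oxidants in follicular fluid around ovulation.

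ARE letters near the start sites are shown for the members in which a match lay upstream of the start, because these are the letters through which NRF2 is known to act. RefSeq promoters (GRCm38.p6, from 250 bases before to 50 bases after the start) were found for 7 of the 10 members, in 9 windows, and none was listed for *Hmox1*, *Gclc* and *Gsr*. The core motif TGACNNNGC, searched on both strands, was present in 5 of these 9 windows, 1 each for *Nfe2l2*, *Gclm*, *Prdx1*, *Txnrd1* and *Srxn1*, beside 12.4% of 32851 windows of the same length. The match of *Srxn1* lay after the start and is not printed. The lines below give the strand of the gene from 5′ to 3′ with the matched letters in capitals. For *Gclm*, *Prdx1* and *Txnrd1* the match is on the opposite strand, so that the capitals show its reverse complement.
*Nfe2l2*, chr2:75704875-75704913, minus strand: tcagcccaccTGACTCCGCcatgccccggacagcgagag
*Gclm*, chr3:122245403-122245451, plus strand: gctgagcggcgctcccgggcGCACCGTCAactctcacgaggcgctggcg
*Prdx1*, chr4:116685446-116685494, plus strand: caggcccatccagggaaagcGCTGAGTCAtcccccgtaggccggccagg
*Txnrd1*, chr10:82859094-82859142, plus strand: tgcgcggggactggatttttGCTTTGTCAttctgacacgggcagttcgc
Of these 4 matches, that of *Prdx1* overlapped the letters TGACTCA, the AP-1 motif. Searched on both strands, TGACTCA was in 2 of the 9 windows, those of *Srxn1* and *Prdx1*, and in 5.2% of all windows. The palindromic estrogen response element (GGTCA and TGACC with 3 bases between them) was in 0 of the 9 windows and in 0.07% of all windows. A match is a description of the letters, not a measured binding site, and the absence of one says only that the letters are not in the window.

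The deposited values are FPKM, fragments scaled to transcript length and to the number of mapped fragments, so that levels can be set side by side between genes. The tables hold no read counts, so that the depth behind a single value was not computed here. Per sample the FPKM summed to between 522517 (DMSO replicate 1) and 588640 (4OHT replicate 2), and 11037 to 11175 rows reached an FPKM of 1. Of 8 markers fixed for secretory epithelium, 6 reached an FPKM of 1. *Krt8*, *Krt18* and the Müllerian factor *Pax8* had medians of 468, 580 and 121, while *Epcam* and *Cdh1*, which epithelia usually express, stayed at or below 0.138 and 0.422. Of 6 ciliated cell markers 4 had a row, with *Foxj1* at a median of 14.3 and *Hydin* at most 0.00524. The immune marker *Ptprc* and the endothelial *Pecam1* stayed at or below 0.0271 and 0.0783, and *Cd3e* was listed at 0 in every sample. On the same lists, the immune *Cd68* reached 4.01 and the endothelial *Kdr* reached 1.28. The summed level of the 6 stromal markers, of which only *Col1a1* and *Dcn* reached 1, was 3.69 to 7.83 in DMSO, 10.8 to 23.3 in E2 and 5.24 to 8.54 in 4OHT, with *Dcn* at 5.87, 0.652 and 0.416 in DMSO replicates 1 to 3 and 21.01, 11.9 and 6.05 in E2. *Col1a1* did not follow, at 1.84, 2.92 and 6.73 in DMSO and 2.15, 3.17 and 4.57 in E2, so that the higher stromal sum was that of *Dcn*. The summed secretory markers were 1410 to 1560 in DMSO, 2320 to 2560 in E2 and 1470 to 1670 in 4OHT. In this sum *Krt7* stood at 439, 222 and 267 in DMSO replicates 1 to 3 and at 927, 748 and 775 in E2. *Krt8*, *Krt18*, *Krt19* and *Pax8* were also higher in E2 in each pair. *Ovgp1*, on the same list, was lower in each pair, at 1.99, 2.11 and 2.61 in DMSO and 1.49, 2.01 and 1.44 in E2. The summed levels in DMSO, E2 and 4OHT were 17.9 to 20.6, 13.6 to 17.7 and 18.3 to 20.5 for the ciliated markers, in which *Foxj1* was lower in each E2 sample (8.95 to 13.0) than in each DMSO sample (13.6 to 15.9) and *Rsph1* was higher (3.52 to 3.86 against 2.98 to 3.21). The sums were 3.97 to 4.01, 3.54 to 3.83 and 3.02 to 3.71 for the immune markers and 0.624 to 0.837, 1.17 to 1.40 and 0.722 to 0.852 for the endothelial markers. Most of the immune sum was *Cd68*, and most of the endothelial sum was *Kdr*. *Kdr* stood at 0.640, 0.445 and 0.711 in DMSO replicates 1 to 3 and at 1.21, 1.01 and 1.28 in E2, while *Pecam1* and *Cdh5* were not higher in every pair. These values accompany every E2 value given here, and their part in it was not tested. In bulk RNA, a change in the share of expressing cells and a change in RNA per cell cannot be told apart.

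In DMSO the 10 genes spanned levels from 3.85 ± 1.10 FPKM (SD, n = 3) for *Nqo1* to 433 ± 22.0 (SD, n = 3) for *Prdx1*. *Txnrd1* followed *Prdx1* at 371 ± 24.4 (SD, n = 3), and the ranges of these genes did not overlap (lowest *Prdx1* value 416, highest *Txnrd1* value 399). *Nfe2l2* (104), *Gsr* (94.9) and *Gclm* (93.5) formed the next group, in which the range of *Gclm* (81.5 to 106) overlapped those of both *Gsr* and *Nfe2l2*. *Srxn1* (44.3), *Hmox1* (35.4) and *Gclc* (30.2) came next, with *Hmox1* and *Gclc* overlapping, and *Keap1* was lower at 12.3. Over all 9 samples, the mean of *Prdx1* was above 98.3% of all tested genes and that of *Nqo1* above 17.1%. *Prdx1* and *Txnrd1* (above 97.9% of all tested genes) were thus among the most abundant transcripts of these cells. The quinone reductase gene *Nqo1*, often used as the reporter of NRF2 activity, was among the weaker ones.

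**Figure D1:**
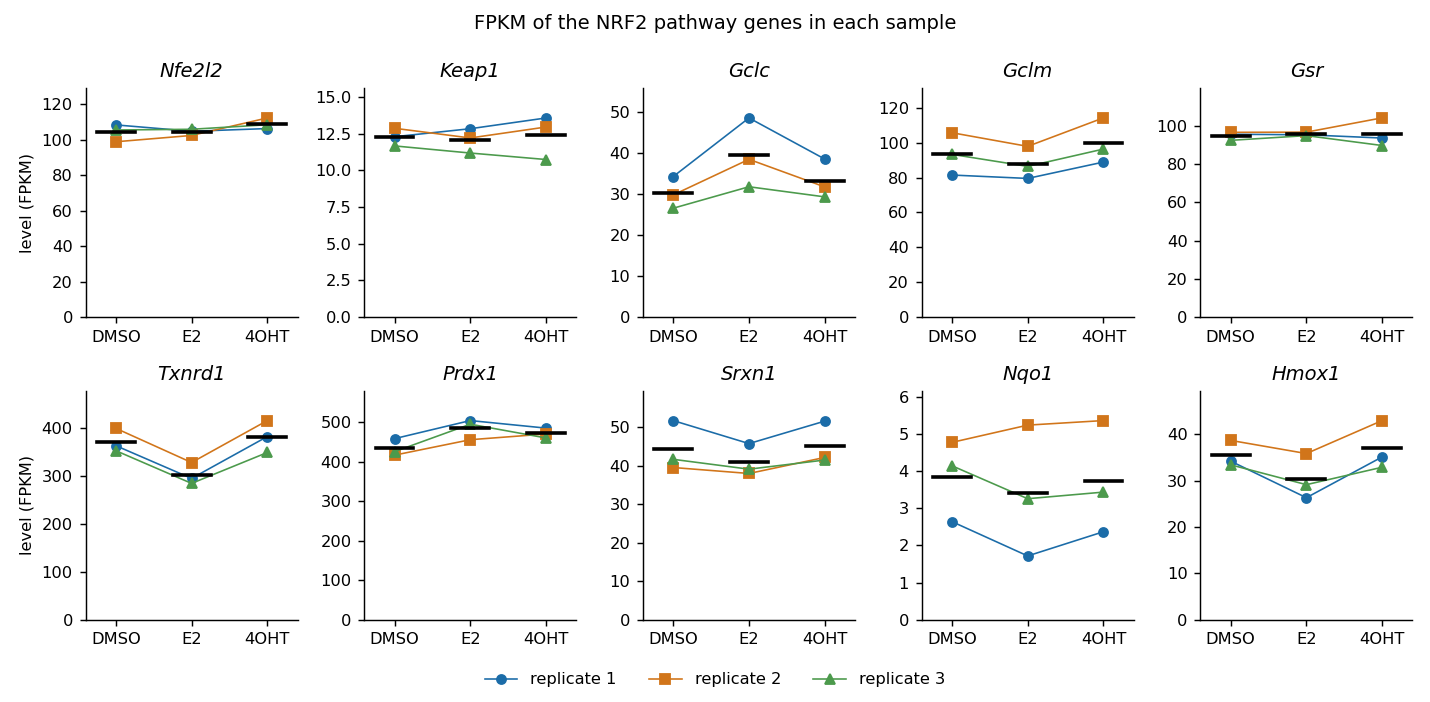
FPKM (y axis, from 0, a separate scale for each gene) of the 10 genes in DMSO, E2 and 4OHT. Each symbol is 1 sample, lines join samples with the same replicate number, and black bars are means of 3 samples. *Txnrd1* is lower in each E2 sample (284 to 327) than in each DMSO sample (352 to 399), while the lines of the 3 replicates lie apart for *Nqo1* and *Gclm*, and for *Srxn1* only that of replicate 1 does.

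Samples with the same replicate number resembled each other, and the comparisons below were therefore read in 2 ways. The first fit, limma on log2(FPKM + 1) over all 9 samples with Benjamini-Hochberg adjustment over the 11339 rows, ignored the number. The second, called the paired fit, added the replicate number as a block. The deviations of same-numbered samples from their condition means correlated with a mean of 0.159 over all tested genes (lowest pair 0.0527). The mean was 0.687 (lowest pair 0.523) when only the 11094 genes with no exact 0 entered. The labels do not say what the number stands for, nor whether the replicates were separate cultures, so that the p-values measure the spread between these samples.

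For 7 of the 10 members the replicate number accounted for more of the sum of squares of log2(FPKM + 1) than the condition did. This share was 89.8% for *Nqo1*, 83.0% for *Srxn1* and 77.7% for *Gclm*. The condition accounted for more than the replicate number in *Txnrd1* (73.8%), *Prdx1* (62.7%) and *Nfe2l2* (37.4%). For *Nfe2l2* the largest share, 54.5%, lay in neither. The replicates did not order the genes in one way: averaged over the conditions, *Nqo1* had an FPKM of 2.24, 5.12 and 3.61 in replicates 1, 2 and 3, and *Gclm* 83.3, 106 and 92.0, whereas *Srxn1* had 49.7, 39.9 and 40.8 and *Gclc* 40.4, 33.3 and 29.2. Of the 10 genes, 4 were highest in replicate 1, 5 in replicate 2 and 1 in replicate 3. Neither these counts nor that of the 7 members were computed over all tested genes, so they are not read as particular to the members.

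**Figure D2:**
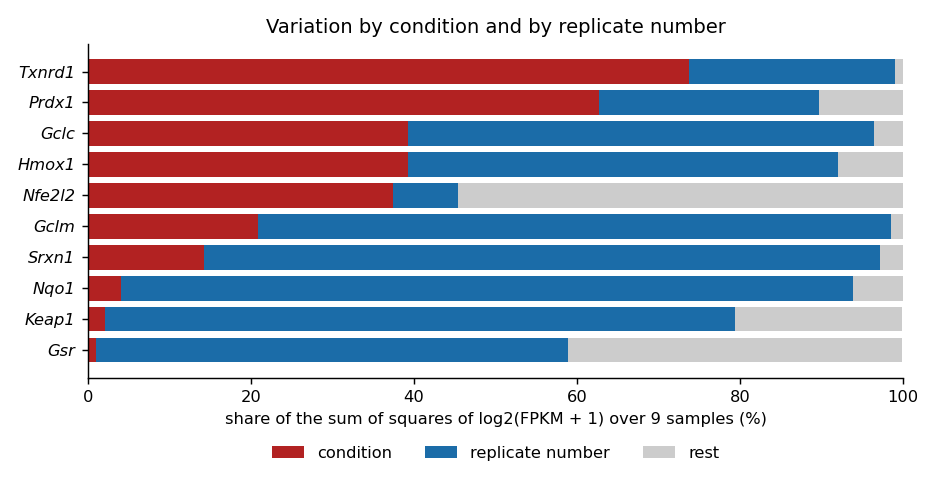
Share of the sum of squares of log2(FPKM + 1) over the 9 samples (x axis, percent) that lies between conditions (red), between replicate numbers (blue) and in the rest (grey), for each gene. *Txnrd1* has the largest share by condition, 73.8%, and *Gsr* the smallest, 1.02%.

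E2 changed 3 of the 10 members in the paired fit, by small amounts and in opposite directions, and 0 in the unpaired one. With pairing, *Gclc* and *Prdx1* rose, to 1.31 and 1.12 times their mean FPKM in DMSO, and *Txnrd1* fell, to 0.814 times. Without pairing, 0 of the 10 members passed for E2 versus DMSO, where 0.512% of all tested genes did, and 2 (*Txnrd1* and *Prdx1*) had an unadjusted p under 0.05, beside 10.9% of all tested genes. The paired fit called 3 of the 10, that is 30.0%, beside 15% of all tested genes. By direction it called 2 members higher, beside 10.4% of all genes, and 1 lower, beside 4.63%. At an unadjusted p under 0.05 the paired fit had 6 members, beside 32.9% of all genes. The E2 sample was higher in all 3 pairs for 2 members and lower in all 3 for 4, beside 28.1% and 24.3% of all genes. The median log2 fold change of the members was -0.05, and that of all tested genes was 0.00 (-0.0027). As a check that the cells received estrogen, *Pgr*, the progesterone receptor gene, had a mean FPKM of 4.03 ± 4.80 in DMSO and 25.1 ± 11.6 in E2, and *Greb1*, a classical estrogen target, 6.39 ± 6.83 and 23.0 ± 10.3 (SD, n = 3 each). Replicate 1 stood apart, in that DMSO replicates 1 to 3 had 9.58, 1.36 and 1.16 FPKM of *Pgr* and 14.3, 2.58 and 2.30 of *Greb1*, and E2 was higher in each pair. Their adjusted p was 0.00253 and 0.00525 in the paired fit, and 0.212 and 0.357 without pairing.

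**Figure D3:**
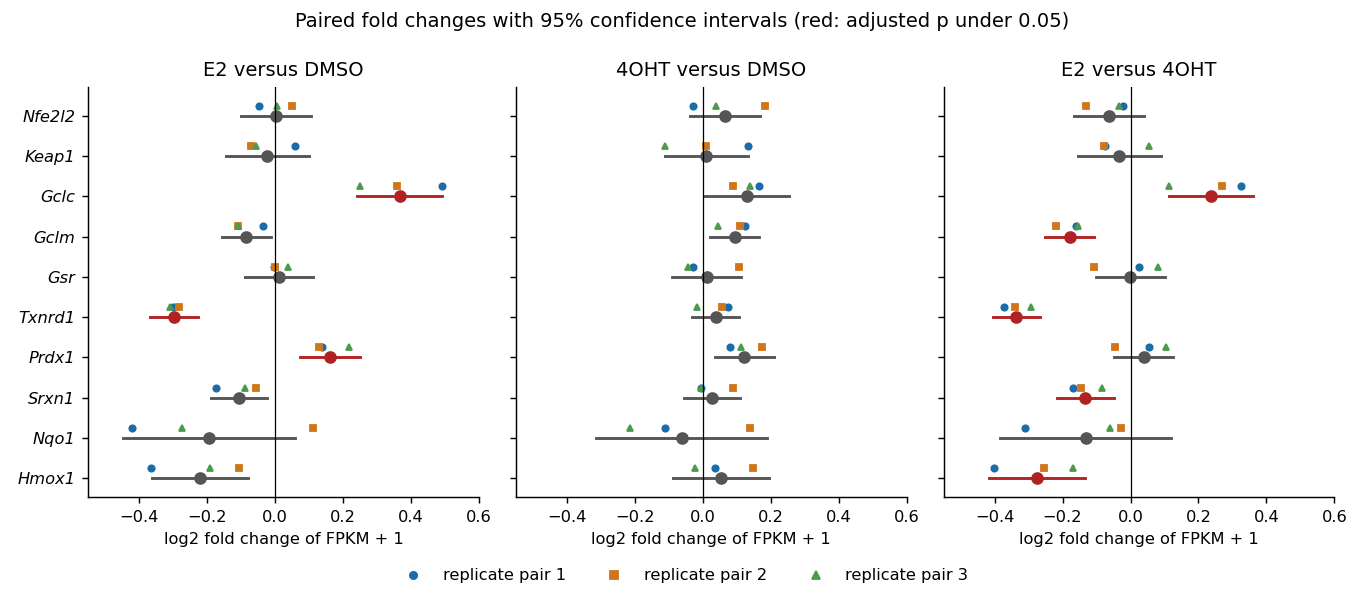
Log2 fold change of FPKM + 1 (x axis) in 3 panels, E2 against DMSO, 4OHT against DMSO and E2 against 4OHT. Large points are the fitted values with 95% confidence intervals of the paired fit, red where the adjusted p is under 0.05, and small symbols are the 3 replicate pairs. For E2 versus DMSO the intervals of *Gclc* (0.24 to 0.49) and *Txnrd1* (-0.37 to -0.23) lie on opposite sides of 0.

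The mRNAs of *Nfe2l2* and *Keap1* did not pass in any comparison. *Nfe2l2* spans 75675513 to 75704641 of chromosome 2 in mm10. DMSO replicates 1 to 3 had 108, 98.8 and 105 FPKM, the E2 samples 105, 102 and 106, and the 4OHT samples 106, 112 and 108. The groups overlapped for both compounds against DMSO. Its log2 fold change for E2 versus DMSO was 0.00 (0.0025), with a paired 95% interval from -0.10 to 0.11, which holds changes from -6.72% to 7.58%. *Keap1*, which encodes the adaptor that targets NRF2 for degradation and lies on chromosome 9 from 21229730 to 21239361, stood at 12.3, 12.9 and 11.7 FPKM in DMSO replicates 1 to 3, at 12.8, 12.2 and 11.2 in E2 and at 13.6, 13.0 and 10.7 in 4OHT. Replicate 3 was the lowest of each condition. For E2 versus DMSO its log2 fold change was -0.02 (paired 95% interval -0.14 to 0.10). Both intervals hold 0, so that with 3 pairs changes within them cannot be told from no change.

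Of the genes for glutamate-cysteine ligase, which performs the rate-limiting step of glutathione synthesis, *Gclc* rose with E2 in the paired fit and *Gclm* did not pass in either fit. *Gclc*, the catalytic subunit, lies on chromosome 9 from 77754535 to 77794485. DMSO replicates 1 to 3 had 34.2, 29.7 and 26.5 FPKM, the E2 samples 48.5, 38.4 and 31.7, and the 4OHT samples 38.5, 31.7 and 29.3. The DMSO and E2 values overlapped, but within each replicate number the E2 sample was the higher, by 41.7%, 29.1% and 19.7%. Its log2 fold change was 0.37 (standard error 0.17 without pairing and 0.051 with it), with an adjusted p of 0.490 without pairing and 0.00837 with it (limma). *Gclm*, the modifier subunit that lowers the enzyme's feedback inhibition by glutathione, lies on chromosome 3 from 122245557 to 122270732 and carries the ARE letters shown above. It stood at 81.5, 106 and 93.3 FPKM in DMSO replicates 1 to 3, at 79.5, 97.9 and 86.4 in E2, and at 88.9, 114 and 96.4 in 4OHT. The E2 sample was the lower of each pair, with changes of -2.39%, -7.40% and -7.38%, and the log2 fold change of -0.08 did not pass (limma, adjusted p = 0.828, and 0.108 with pairing).

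As a ratio within each sample, which does not depend on how libraries were scaled against each other, *Gclc* to *Gclm* was 0.420, 0.281 and 0.284 in DMSO replicates 1 to 3. In E2 it was 0.609, 0.392 and 0.367, and in 4OHT 0.433, 0.277 and 0.304. The E2 ratio was thus 1.45, 1.39 and 1.29 times that of the DMSO sample of the same number, and the 4OHT ratio 1.03, 0.986 and 1.07 times. This ratio was chosen after the values were seen and is given without a test. *Gsr*, on chromosome 8 from 33652523 to 33698163, encodes glutathione reductase, which returns oxidised glutathione to its reduced form. DMSO replicates 1 to 3 had 95.7, 96.7 and 92.5 FPKM, the E2 samples 95.4, 96.8 and 94.96, and the 4OHT samples 93.7, 104 and 89.8, so that the groups overlapped. For E2 versus DMSO its log2 fold change was 0.01 (paired 95% interval -0.09 to 0.11).

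Of the 3 members that work with thioredoxin, *Txnrd1* fell and *Prdx1* rose with E2 in the paired fit, and *Srxn1* did not pass in either fit. *Txnrd1*, the cytosolic thioredoxin reductase, a selenoprotein that uses NADPH to reduce thioredoxin, lies on chromosome 10 from 82833951 to 82897712. DMSO replicates 1 to 3 had 363, 399 and 352 FPKM, the E2 samples 294, 327 and 284, and the 4OHT samples 382, 415 and 348. All 3 E2 values lay below all 3 DMSO values, which was so for 6.05% of the tested genes (9.14% lay wholly above), and *Txnrd1* was the only member whose DMSO and E2 groups did not overlap. The change was nearly equal in the 3 pairs, at -18.8%, -17.9% and -19.3%. The log2 fold change was -0.30 (standard error 0.086 without pairing and 0.028 with it), with an adjusted p of 0.271 without pairing and 0.00295 with it (limma). The annotation gives *Txnrd1* 8 transcripts and 3 start windows, of which the ARE letters stood in 1, and the deposited value does not separate them. *Eid3* lies within the gene's span on the same strand.

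*Prdx1*, on chromosome 4 from 116685544 to 116700822, encodes a peroxiredoxin that reduces hydrogen peroxide and is itself reduced by thioredoxin. DMSO replicates 1 to 3 had 458, 416 and 425 FPKM, the E2 samples 504, 455 and 494, and the 4OHT samples 485, 470 and 460. The DMSO and E2 groups overlapped, since E2 replicate 2 lay just below DMSO replicate 1, and the E2 sample was the higher of each pair by 9.99%, 9.37% and 16.3%. The log2 fold change was 0.16 (standard error 0.059 without pairing and 0.036 with it), with an adjusted p of 0.378 and, with pairing, 0.0338 (limma). *Srxn1*, on chromosome 2 from 152105516 to 152111376, encodes sulfiredoxin, which repairs overoxidised peroxiredoxins. It stood at 51.7, 39.5 and 41.7 FPKM in DMSO replicates 1 to 3, at 45.8, 38.0 and 39.1 in E2, and at 51.6, 42.2 and 41.5 in 4OHT. The E2 sample was lower in each pair, with changes of -11.5%, -3.91% and -6.14%, and the log2 fold change of -0.11 did not pass (limma, adjusted p = 0.782, and 0.0893 with pairing).

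The ratio of *Prdx1* to *Txnrd1* within a sample was 1.26, 1.04 and 1.21 in DMSO, 1.71, 1.39 and 1.74 in E2, and 1.27, 1.13 and 1.32 in 4OHT. All 3 E2 ratios lay above all DMSO and 4OHT ratios. The E2 ratio was 1.35, 1.33 and 1.44 times that of the same-numbered DMSO sample. It too was chosen after the values were seen and carries no test.

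**Figure D4:**
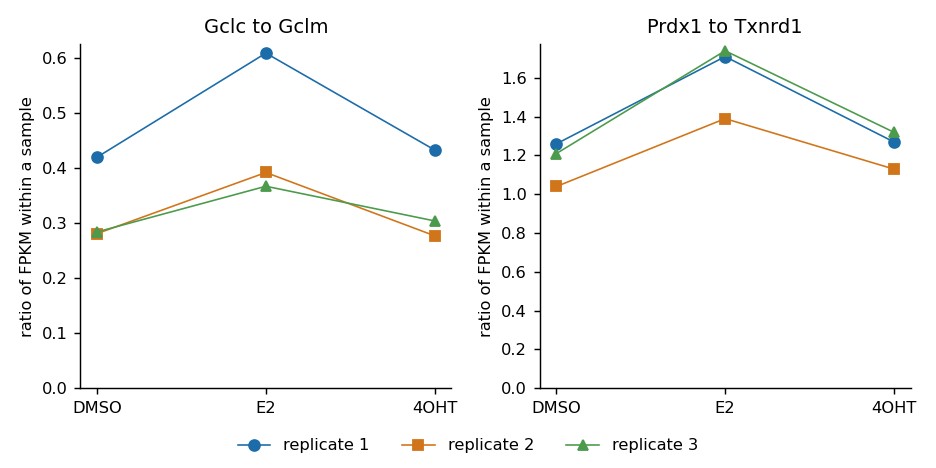
Ratio of FPKM within each sample (y axis, from 0) of *Gclc* to *Gclm* (left) and of *Prdx1* to *Txnrd1* (right) in DMSO, E2 and 4OHT, with lines joining samples of the same replicate number. Both ratios are highest in E2 in each of the 3 replicates. For *Gclc* to *Gclm* replicate 1 lies above the other replicates in every condition.

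The 2 detoxification genes had lower E2 means that did not pass in either fit. *Hmox1*, on chromosome 8 from 75093621 to 75100589, encodes the inducible heme oxygenase, which breaks heme down to biliverdin, iron and carbon monoxide. DMSO replicates 1 to 3 had 34.2, 38.7 and 33.4 FPKM, the E2 samples 26.3, 35.8 and 29.1, and the 4OHT samples 35.1, 42.9 and 32.9. Within the pairs E2 was always lower, with changes of -23.0%, -7.34% and -12.8%, while the groups overlapped. The log2 fold change of -0.22 had an adjusted p of 0.606 without pairing and, just short of the threshold, 0.0538 with it (limma). *Nqo1*, on chromosome 8 from 107388225 to 107403206, encodes a quinone reductase that carries out a 2-electron reduction of quinones, including those formed from estrogens. It stood at 2.64, 4.77 and 4.14 FPKM in DMSO replicates 1 to 3, at 1.72, 5.24 and 3.26 in E2, and at 2.37, 5.36 and 3.43 in 4OHT. E2 was lower in replicates 1 and 3, with changes of -35.0% and -21.4%, and higher in replicate 2, by 9.73%. The paired interval of its log2 fold change, from -0.45 to 0.06, was the widest of the 10, and because 1 was added before the log, a fold change at this level is understated.

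Each of the 3 E2 calls needed the pairing. When all 3 samples of 1 replicate number were left out of the paired fit, *Txnrd1* passed without replicate 1 (adjusted p = 0.0468) and without replicate 2 (0.0403) but not without replicate 3 (0.0627). *Gclc* had adjusted p values of 0.0602, 0.0849 and 0.0512 without replicates 1, 2 and 3, and *Prdx1* of 0.141, 0.0804 and 0.243 (limma). The log2 fold changes without 1 replicate ran from 0.30 to 0.42 for *Gclc*, from -0.30 to -0.29 for *Txnrd1* and from 0.13 to 0.18 for *Prdx1*.

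4OHT left all 10 genes without a call. For 4OHT versus DMSO, 0 of the 10 members and 0% of all tested genes passed in either fit (limma), and the smallest adjusted p of a member was 0.376 with pairing. At an unadjusted p under 0.05 there were 0 members without pairing, beside 2.76% of all genes, and 3 with it (*Gclm*, *Gclc* and *Prdx1*), beside 13.1%. These 3 were higher in all 3 pairs, where 30.2% of all tested genes were, and 0 members were lower in all 3, beside 15.6%. *Gclc* was higher by 12.5%, 6.53% and 10.4% in replicates 1 to 3, *Gclm* by 9.12%, 8.05% and 3.26%, and *Prdx1* by 5.82%, 12.9% and 8.15%. The 3 *Prdx1* values in 4OHT lay above the 3 in DMSO, which was so for 4.37% of the tested genes (3.57% lay wholly below). The log2 fold change of *Txnrd1* with 4OHT was 0.04 (paired 95% interval -0.03 to 0.11), which holds changes from -2.12% to 7.75%. The median of the members was 0.05, beside 0.03 for all tested genes. In the pair of replicate 2 all 10 members were higher in 4OHT, by 0.677% to 13.6%, against 6 in replicate 1 and 4 in replicate 3. The share of all tested genes higher in a single pair was not computed, so these counts are not read as particular to the members. 4OHT replicate 2 was also the sample with the largest FPKM sum, and whether this bears on that pair was not tested. Under upper-quartile scaling the median log2 fold change of the members over all 3 pairs was 0.01.

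Between E2 and 4OHT the paired fit called 5 of the 10 members, 50.0%, where it called 16.2% of all tested genes. *Gclc* was higher in E2, and *Txnrd1*, *Gclm*, *Hmox1* and *Srxn1* were lower. By direction, this is 1 member beside 8.63% of all genes and 4 members beside 7.6%. Without pairing 0 members passed, beside 0.159% of all genes, and 1 (*Txnrd1*) had an unadjusted p under 0.05, beside 11.5%. With pairing the same 5 members had one, beside 37.2%. In all 3 pairs 6 members were lower in E2 and 1 was higher, beside 30.9% and 24.3% of all genes. This comparison uses the same E2 samples as that with DMSO, and the doses of the 2 compounds differ, so it is no second observation of the same change. *Txnrd1* had a log2 fold change of -0.34 (paired standard error 0.028, adjusted p = 0.00308 with pairing and 0.259 without, limma), and its E2 values lay below all 4OHT values, as did 9.9% of the tested genes (8.4% lay wholly above). *Gclm* had one of -0.18 (adjusted p = 0.0170 with pairing), *Hmox1* one of -0.28 (0.0305) and *Srxn1* one of -0.13 (0.0491, and 0.0746 when upper-quartile scaling was added). *Gclc* was higher in E2 by 26.0%, 21.2% and 8.42% in replicates 1 to 3 (log2 fold change 0.24, adjusted p = 0.0325 with pairing). *Prdx1*, with a log2 fold change of 0.04, did not pass (paired 95% interval -0.05 to 0.13). With all samples of 1 replicate number left out, only *Txnrd1* passed, and only without replicate 2 (adjusted p = 0.0450, limma). *Nfe2l2* was lower in each E2 sample than in each 4OHT sample, with changes of -1.44%, -8.80% and -2.34% within the pairs, and did not pass (adjusted p = 0.325 with pairing).

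Some members followed each other over the 9 samples. *Hmox1* and *Txnrd1* had the highest Pearson correlation of log2(FPKM + 1) (0.894), followed by *Nqo1* with *Gclm* (0.876) and *Hmox1* with *Gclm* (0.846). The lowest was that of *Nqo1* with *Srxn1* (-0.703). These values describe 9 samples that share 3 conditions and 3 replicate numbers, and most of the spread of *Nqo1*, *Gclm* and *Srxn1* lay between the replicate numbers. Of the 11329 other tested genes, the profiles of *Mrpl55* (0.909), *Osgep* (0.872) and *Atp5o* (0.837) were most like that of *Nfe2l2* over the same samples, whose own FPKM ranged only from 98.8 to 112.

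The wider pathway was read from 82 further genes in 7 lists. Of these, 79 symbols had a row and 72 were tested. For E2 versus DMSO the paired fit called 11 higher and 3 lower, 19.4% beside the 15% of all tested genes, and their median log2 fold change was 0.01. Without pairing 2 of the 72 passed, *Maff* and *Gpx3*, beside 0.512% of all tested genes. For 4OHT versus DMSO 0 of the 72 passed in either fit (limma), and at an unadjusted p under 0.05 there were 1 without pairing (1.39%, beside 2.76% of all genes) and 9 with it (12.5%, beside 13.1%).

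Of the 12 regulators and partners, 10 were tested, and 4 rose with pairing and 0 fell, where 10.4% of all tested genes were called higher. *Maff*, a small MAF protein that can pair with NRF2 or form dimers that repress AREs, stood at 77.4 ± 8.49 FPKM with DMSO, 123 ± 4.34 with E2 and 97.2 ± 5.11 with 4OHT (SD, n = 3 each). Its log2 fold change with E2 was 0.67 (limma, adjusted p = 0.0213, and 0.00154 with pairing), larger than that of any of the 10 members. *Mafk*, another small MAF gene, had one of 0.20 (adjusted p = 0.0226 with pairing), *Nfe2l1*, a relative of NRF2 that controls proteasome genes, one of 0.22 (0.0118), and *Gsk3b*, a kinase that marks NRF2 for a KEAP1-independent degradation, one of 0.28 (0.0176). None of these 3 passed without pairing.

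Of the 24 genes of glutathione supply and use, 21 were tested, and 3 rose with pairing and 0 fell, a share of 14.3% that was near the 15% of all tested genes. *Gpx3*, a secreted glutathione peroxidase, stood at 479 ± 27.9 FPKM with DMSO, 629 ± 8.56 with E2 and 500.5 ± 14.2 with 4OHT (SD, n = 3 each). E2 gave a log2 fold change of 0.39 (limma, adjusted p = 0.0304, and 0.00343 with pairing). *Gpx1*, the cytosolic glutathione peroxidase, had one of 0.23 (0.0311 with pairing) and *Mgst3*, a microsomal glutathione transferase, one of 0.29 (0.0350). *Glrx*, a glutaredoxin, had one of 0.16 and did not pass (0.0570). Within the thioredoxin and peroxiredoxin list 0 of 14 tested genes passed in either fit (limma), and at an unadjusted p under 0.05 there were 1 without pairing and 3 with it, beside 10.9% and 32.9% of all genes. The nearest were *Txnrd3* (log2 fold change -0.17, adjusted p = 0.0644), the stress-responsive *Sesn2* (-0.19, 0.0684), *Prdx6* (-0.09, 0.126) and *Prdx4* (0.09, 0.191). Beside *Txnrd1* and *Prdx1*, E2 thus gave no call against DMSO in these 14 relatives.

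*Idh1* and *Me1*, which produce NADPH for glutathione and thioredoxin reduction, rose with pairing, by log2 fold changes of 0.51 (limma, adjusted p = 0.00470) and 0.38 (0.00513). They were 2 of the 6 genes of NADPH supply, where 10.4% of all tested genes were called higher. *Taldo1* (0.15, 0.0625) and *G6pdx* (0.07, 0.442), of the pentose phosphate pathway, did not pass. Neither did any of the 6 genes of heme and iron handling. Of these, 2 had an unadjusted p under 0.05 with pairing and 0 without, beside 32.9% and 10.9% of all tested genes. Among the 6 were the ferritin genes *Ftl1* (-0.11, 0.119) and *Fth1* (-0.03, 0.435), *Blvrb* (0.22, 0.115) and the iron exporter *Slc40a1* (0.10, 0.204). Of 3 tested genes for removal of superoxide and hydrogen peroxide, *Cat* (0.06, 0.424), *Sod1* (0.01, 0.931) and *Sod2* (0.00, written -0.0013 in full, 0.991), 0 passed and 0 had an unadjusted p under 0.05 in either fit (limma). Reads of *Ftl1* and *Fth1* may be shared with near-identical copies, so that their levels are uncertain.

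Among 12 tested genes of quinone and xenobiotic detoxification, 2 rose and 3 fell with pairing, 41.7% beside 15% of all tested genes. Of all tested genes, 10.4% were called higher and 4.63% lower. *Osgin1*, an NRF2 target that responds to oxidative stress, stood at 21.5 ± 0.680 FPKM with DMSO, 16.6 ± 1.17 with E2 and 21.2 ± 1.84 with 4OHT (SD, n = 3 each). E2 gave a log2 fold change of -0.35 (limma, adjusted p = 0.122, and 0.0114 with pairing). *Abcc1*, an exporter of glutathione conjugates, had one of -0.20 (0.00804 with pairing). The other gene that fell, *Cbr3*, a carbonyl reductase, had one of -0.23 (0.0341) and is named outside the rule because the count is small. *Ephx1*, the microsomal epoxide hydrolase, had a log2 fold change of 0.14 (0.0187) and *Nqo2*, a relative of *Nqo1*, one of 0.21 (0.0311).

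For E2 versus 4OHT the paired fit called 9 of the 72 genes higher and 7 lower, 22.2% beside 16.2% of all tested genes. Without pairing 0 passed, beside 0.159% of all tested genes. *Maff* (log2 fold change 0.34, adjusted p = 0.0130 with pairing) and *Gpx3* (0.33, 0.00758) were higher in E2. *Osgin1* (-0.33, 0.0160) and *Abcc1* (-0.11, 0.0433) were lower, as were *Ftl1* (-0.17, 0.0371) and *Prdx6* (-0.19, 0.0191). *G6pdx*, which did not pass for either compound against DMSO, was higher in E2 than in 4OHT (0.23, 0.0392 with pairing, limma).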

How the data were processed

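RNA from 9 samples (DMSO, E2 and 4OHT, 3 each) was analysed, with conditions and replicate numbers taken from the labels. The authors trimmed the reads of directional single-end libraries, aligned them to mm10 with TopHat 2.0.8b and estimated known genes with Cufflinks. The submitters' processing notes also name Cuffdiff 2.1.1. The deposited values are FPKM, 1 table per sample. Whether a further scaling between libraries or a strand setting entered is not given in the sources used here.

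Of 23332 rows, the 11339 reaching 1 FPKM in 3 or more samples entered a fit with limma 3.58.1 in R 4.3.3 on log2(FPKM + 1), with a trend, 1 coefficient per condition, Benjamini-Hochberg adjustment within a comparison and a threshold of 0.05. Because the study's methods use no block, the unpaired fit is the main one, and the replicate number was added as a block for the paired fit. Exact zeros were kept. The members hold none, but 266 other expressed genes do, and setting these as missing changed the count of members called in the paired fit, as given below. Fold changes are on the log2(FPKM + 1) scale.

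The members and lists were chosen with earlier results of these data known. Named were the members, the 4 genes of each list with the smallest paired p for E2 versus DMSO, *Pgr* and *Greb1*, and the 3 genes most correlated with *Nfe2l2*. Of the 82 list symbols, 3 had no row of their own. Coordinates came from GENCODE M21 (GRCm38, the assembly of mm10) and promoters from RefSeq GRCm38.p6. Alternatives were another pseudocount, no filter, upper-quartile scaling, fits on 6 samples, zeros as missing, and samples or replicates left out. An exact permutation test was not run, since 3 against 3 samples cannot pass the threshold.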

Additional observations from a re-analysis of the deposited data

How the results depend on the processing

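Directions of *Txnrd1*, *Gclc*, *Prdx1* and *Hmox1* for E2 versus DMSO were the same under all 21 alternatives. Those of *Gclm*, *Gsr*, *Keap1*, *Nfe2l2*, *Nqo1* and *Srxn1* turned in 16 values in all. Among the genes that turned, none was called for this comparison in the main or the paired fit. *Gclm* passed when upper-quartile scaling was added to the block. Without the block 0 members passed under any alternative.

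With the replicate block, a pairing taken from the labels' numbers, 3 members passed for E2 versus DMSO and 5 for E2 versus 4OHT. Adding zeros as missing gave 4 and 5, with *Hmox1* as the addition (adjusted p = 0.0293), a pseudocount of 0.1 gave 3 and 5, and upper-quartile scaling gave 5 and 4, with *Hmox1* (0.0498) and *Gclm* (0.0224) added (limma). With a replicate left out of the block fit, 0 to 1 members passed in both comparisons. For 4OHT versus DMSO 0 members passed under every alternative.

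Over all genes, for E2 versus DMSO 58 passed without the block, 1702 with it, 2105, 1711 and 2024 when zeros as missing, the pseudocount or the scaling were added to it, and 8 with only the 6 samples compared. For E2 versus 4OHT the counts were 18, 1840, 2435, 1806, 2106 and 7, and without the block 10 with the pseudocount of 0.1, 5 with no filter and 37 with zeros as missing. For 4OHT versus DMSO 0 passed with or without the block, 5 with no filter, 3 with only the 6 samples compared and 16 with the block and zeros as missing. Leaving out 1 sample gave 8 to 50 genes for E2 versus DMSO, 0 to 2 for 4OHT versus DMSO and 0 to 23 for E2 versus 4OHT, and leaving out 1 replicate from the block fit gave 155 to 542 (305 without replicate 2), 4 to 7 and 85 to 234 (167 without replicate 2). The cause of these differences was not tested, and a fit with a sample or replicate left out also holds fewer samples. Depth cannot be read from FPKM, and with 3 pairs a change whose interval holds 0 cannot be told from no change.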
